A study of Mus musculus with 39 samples.

Results

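A group of 9 genes of adrenergic and cAMP signalling was followed in interscapular brown fat: the adrenergic receptors Adrb1, Adrb3, Adra1a and Adra2a, the G protein gene Gnas, the adenylyl cyclase Adcy3, the protein kinase A subunit Prkar2b and the phosphodiesterases Pde3b and Pde4b. They were taken by gene symbol, and the table held all 9 of them among 24116 gene entries. A mean of at least 10 normalised counts over the 16 RNA libraries was required for a test, which 8 of the 9 genes and 13176 genes in all reached. The BCL6 binding sites nearest to these genes, 2 of 3022, were described beside them. The libraries came from male C57BL/6J mice in 4 groups of 4. UCP1Cre+ mice at 30 °C and Cre- mice at 30 °C were set beside UCP1Cre+ mice at 22 °C and Cre- mice at 22 °C. All groups carried floxed Bcl6 alleles (BCL6ff), so the Cre- controls carried them too, and the UCP1Cre+ mice had Cre under the promoter of Ucp1, which restricts it mainly to brown and beige adipocytes. The labels give no age. They also leave unsaid whether a group stands for 4 mice, so p-values measure the spread between these samples, which may be technical.

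In brown fat, noradrenaline from sympathetic nerves binds β-adrenergic receptors, which act through the stimulatory G protein to switch on adenylyl cyclases. The cAMP made there releases the catalytic subunits of protein kinase A (PKA) from its regulatory subunits, and PKA drives lipolysis, heat production by the uncoupling protein UCP1 and transcription through CREB. Phosphodiesterases break cAMP down again, α1 receptors act through another G protein and calcium, and α2 receptors lower cAMP through the inhibitory G protein. Housing at 30 °C is near thermoneutrality for mice, where the sympathetic drive to brown fat is low, while 22 °C is a mild cold stress.

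Each of the 8 libraries at 30 °C summed to between 8867615 and 9975035 normalised counts, against 10122739 to 13516936 for the 8 at 22 °C, and raw depth is unknown. The 2 libraries with the fewest genes above 0 were UCP1Cre+ 22 °C replicate 2 and Cre- 22 °C replicate 1. Bcl6 had 3269, 4451, 5159 and 4985 normalised counts in UCP1Cre+ and 2340.5, 2266, 1763 and 1020.1 in Cre- fat at 30 °C, and 3263, 2670.5, 3362 and 3927 in UCP1Cre+ and 916, 799, 764 and 1838 in Cre- fat at 22 °C. It thus had more RNA in libraries labelled UCP1Cre+, 2.50-fold at 30 °C (limma adjusted p = 0.00438) and 3.25-fold at 22 °C (limma adjusted p = 0.000825). The labels do not say which part of the gene is deleted, so this level does not check the deletion, and directions by genotype refer to the libraries labelled UCP1Cre+. All 8 brown adipocyte markers on the marker list were detected in every group.

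Of the 9 genes 6 have entries in a RefSeq table of sequences before gene starts (GRCm38.p6, the build named mm10). The 250 bases before the start are given for 4 genes whose RNA was lower at 30 °C and for Pde4b, which moved the other way, each 5′ to 3′ on the gene's strand. Capitals mark a cAMP response element half-site (TGACG, or CGTCA on the other strand), the sequence read by CREB, or the core TTCNNNGAA, which BCL6 and STAT proteins can read.
Adrb1, chr19:56721867-56722116, plus strand: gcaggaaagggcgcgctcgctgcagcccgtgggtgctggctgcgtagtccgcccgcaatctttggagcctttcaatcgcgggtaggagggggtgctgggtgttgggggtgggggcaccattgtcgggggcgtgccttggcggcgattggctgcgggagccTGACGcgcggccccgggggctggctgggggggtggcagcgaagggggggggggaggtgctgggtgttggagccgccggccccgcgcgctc
Adcy3, first of 2 entries, chr12:4133147-4133396, plus strand: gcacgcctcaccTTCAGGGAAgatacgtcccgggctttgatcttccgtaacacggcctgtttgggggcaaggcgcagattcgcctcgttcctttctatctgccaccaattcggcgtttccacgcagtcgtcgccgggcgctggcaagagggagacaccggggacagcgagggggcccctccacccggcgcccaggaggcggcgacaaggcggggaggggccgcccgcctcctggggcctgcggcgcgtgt
Gnas, entry with the most downstream start of 4, chr2:174329756-174330005, plus strand: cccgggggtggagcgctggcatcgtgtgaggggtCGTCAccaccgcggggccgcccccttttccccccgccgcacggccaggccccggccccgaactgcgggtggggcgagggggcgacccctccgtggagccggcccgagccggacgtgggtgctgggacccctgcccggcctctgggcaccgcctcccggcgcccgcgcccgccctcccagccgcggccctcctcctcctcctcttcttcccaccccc
Prkar2b, first of 2 entries, chr12:32061278-32061527, minus strand: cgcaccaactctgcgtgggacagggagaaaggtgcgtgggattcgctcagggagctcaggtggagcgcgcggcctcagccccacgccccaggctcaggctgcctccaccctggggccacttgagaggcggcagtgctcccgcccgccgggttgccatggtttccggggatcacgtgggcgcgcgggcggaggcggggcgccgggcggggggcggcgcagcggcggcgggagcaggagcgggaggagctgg
Pde4b, first of 4 entries, chr4:102421305-102421554, plus strand: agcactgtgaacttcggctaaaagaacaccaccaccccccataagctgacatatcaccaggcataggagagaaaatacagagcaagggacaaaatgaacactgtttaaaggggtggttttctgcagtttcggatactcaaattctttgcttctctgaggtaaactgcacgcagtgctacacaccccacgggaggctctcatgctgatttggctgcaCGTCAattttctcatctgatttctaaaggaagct
The Adrb1, Adcy3, Gnas and Prkar2b windows were rich in G and C, with 74.0%, 68.8%, 80% and 75.6% G+C and 24, 27, 29 and 28 CpG dinucleotides, beside medians of 52.4% and 6 over 32851 promoters. The Pde4b window had 46.0% G+C and 5 CpG. No entry of these genes held the full element TGACGTCA on either strand, which 1.55% of all promoters did. Its half-site, which is part of the full element, was present in 6 of 14 entries, those of Adrb1, Adra2a, Pde4b (first entry) and Gnas (3 entries), beside 17.8% of all promoters. Entries 1 and 3 of Gnas overlap (chr2:174327499-174327748 and chr2:174327518-174327767) and hold the same CGTCA, so 1 site is counted for both, and nothing is read from the share. The Adcy3 window held TTCAGGGAA 238 bases before the start, and the second Pde4b entry held TTCCCAGAA 150 bases before it. That core was found in 7.02% of all promoters. These matches describe letters and are not binding data.

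In both genotypes the G protein, the cyclase and the PKA subunit were lower in warm brown fat, and 3 receptors were called lower in Cre- mice. In UCP1Cre+ mice, 4 of the 8 tested genes fell at 30 °C compared with 22 °C and 1 rose, beside 17.7% of all 13176 tested genes lower and 15% higher (32.7% in all). The UCP1Cre+ libraries of those 4 did not overlap between temperatures, which held for 18.3% of all tested genes as lower and 16.2% as higher (34.5% in all). In Cre- mice, 6 fell and 0 rose, beside 22.7% lower and 22.9% higher (45.5% in all). The groups of those 6 did not overlap either, beside 21.3% lower and 19.9% higher (41.2% in all). At an unadjusted p under 0.05 limma had 1 gene higher and 5 lower in UCP1Cre+ fat, beside 42.8% of all tested genes in either direction, and 1 higher and 7 lower in Cre- fat, beside 53.3%. The exact test had none higher in Cre- fat. The median log2 difference of the 8 genes was -0.72 in UCP1Cre+ mice and -0.99 in Cre- mice, against 0.02 and 0.04 for all tested genes. Adcy3, Prkar2b and Gnas fell in both genotypes, Adrb1, Adrb3 and Adra1a fell in Cre- mice, and Pde3b fell in UCP1Cre+ mice. Pde4b was the 1 gene that rose, in UCP1Cre+ mice. All differences are on the log2(value + 1) scale, and a call means a Benjamini-Hochberg adjusted p under 0.05 in limma over all tested genes. In bulk tissue, fewer cells of a type and less RNA per cell cannot be told apart.

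**Figure D1:**
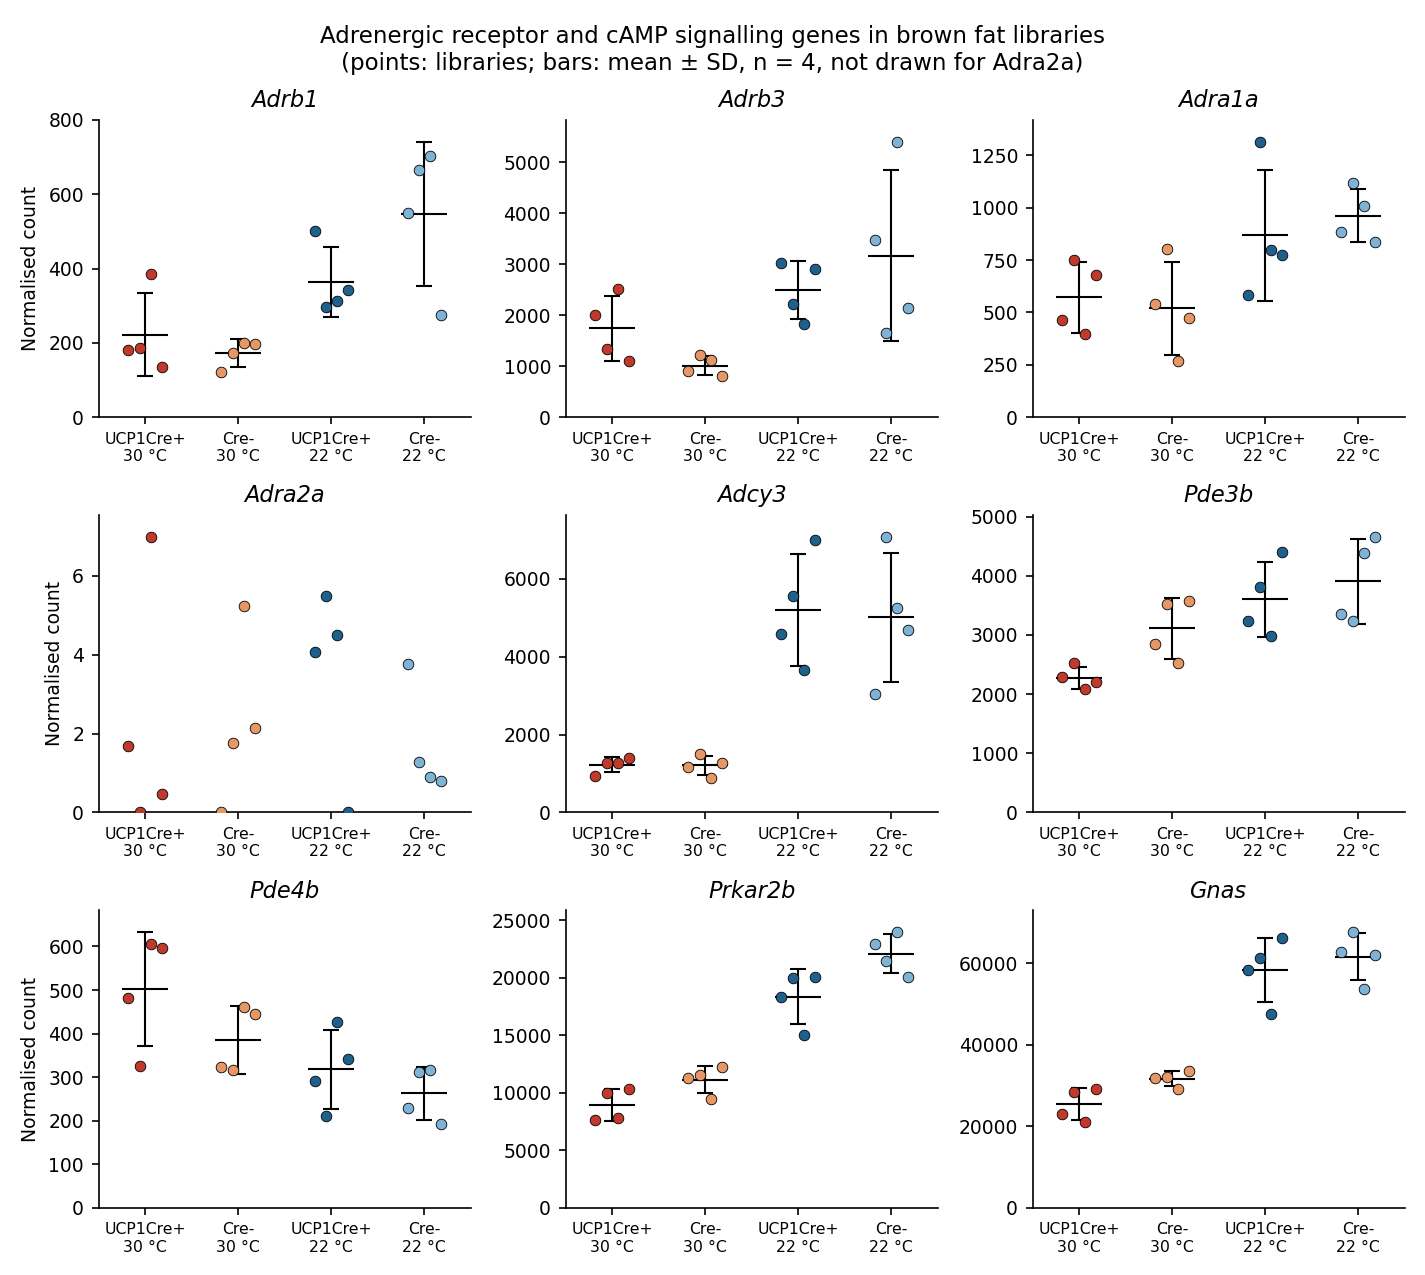
Normalised count (vertical axes, linear and starting at 0) of each of the 9 genes in the 16 libraries, by genotype and temperature. Points are libraries and bars are the mean ± SD of 4, not drawn for Adra2a, which was listed at 0 in some libraries. Adcy3, Prkar2b and Gnas at 30 °C lie below all libraries of the same genotype at 22 °C, and Adra2a stays between 0 and 6.98.

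Adrb3 encodes the β3-adrenergic receptor, the main noradrenaline receptor of rodent brown adipocytes (chr8:27225776-27230845). UCP1Cre+ fat had 2013, 1331, 2509.5 and 1109 normalised counts at 30 °C, against 3036, 2226, 1822 and 2908 at 22 °C. These groups overlapped, and the difference was not called (log2 difference -0.57, SE 0.31, limma adjusted p = 0.183; exact permutation p = 0.143). Its 95% interval of -1.23 to 0.10 includes both 0 and a fall of more than 2-fold. Cre- fat had 900.3, 1226, 1121 and 806 at 30 °C, against 3472, 1656, 5408 and 2144 at 22 °C. All 4 warm Cre- libraries lay below all 4 at 22 °C, and the 22 °C libraries spread more than 3-fold among themselves. The fall was 2.86-fold (log2 difference -1.51, SE 0.31, limma adjusted p = 0.0011; two-sided exact permutation p = 0.0286, the smallest that 4 against 4 allows).

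Adrb1 encodes the β1-adrenergic receptor, which in brown fat is found on adipocytes and their precursors (chr19:56722117-56725150). UCP1Cre+ fat had 179.6, 187, 385 and 136 normalised counts at 30 °C, against 502, 296, 313 and 343 at 22 °C. One warm UCP1Cre+ library, replicate 3 with 385, lay among the 22 °C libraries, and the difference was not called (log2 difference -0.79, SE 0.31, limma adjusted p = 0.0609). Without that library it was -1.10 (limma adjusted p = 0.00894), and without Cre- 22 °C replicate 4, the lowest of its group with 274, the adjusted p was 0.0305. Cre- fat had 120.3, 174, 199.6 and 197 at 30 °C, against 549, 665, 703 and 274 at 22 °C. The Cre- groups did not overlap, and the fall was 3.03-fold (limma adjusted p = 0.000679, log2 difference -1.60, SE 0.31).

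Adra1a encodes the α1A-adrenergic receptor, which raises calcium rather than cAMP (chr14:66635251-66771240). UCP1Cre+ fat had 462, 748, 398 and 681 normalised counts at 30 °C, against 582, 1315, 796 and 776 at 22 °C. Those groups overlapped and the difference was not called (log2 difference -0.58, SE 0.29, limma adjusted p = 0.138). Cre- fat had 539, 804, 266 and 472 at 30 °C, against 885, 1116, 1009 and 834 at 22 °C. All warm Cre- libraries lay below those at 22 °C, by 1.98-fold (log2 difference -0.98, SE 0.29, limma adjusted p = 0.0118). That call was lost with the skeletal muscle score of each library as a covariate (-0.85, limma adjusted p = 0.0576), and the score ran from 1.44 to 2.23 in Cre- fat at 30 °C, against -3.39 to 0.185 at 22 °C.

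Adra2a, the α2A receptor that inhibits cyclases through Gi, was barely detected (chr19:54045259-54048982). It was listed at 1.7, 0, 6.98 and 0.464 normalised counts in UCP1Cre+ fat at 30 °C and at 0, 1.76, 5.23 and 2.13 in Cre- fat at 30 °C. At 22 °C the libraries held 4.07, 5.49, 4.49 and 0 in UCP1Cre+ fat and 3.77, 1.29, 0.91 and 0.788 in Cre- fat. It fell under the minimum mean of 10 and was not tested, and no group stood apart from another.

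Gnas encodes the α subunit of the stimulatory G protein, which links these β receptors to the cyclase (chr2:174284320-174346744). In UCP1Cre+ fat it had 22999, 28396, 21089 and 29107 normalised counts at 30 °C, against 58309, 61265, 47563 and 66201 at 22 °C. In Cre- fat it had 31779, 32125, 29115 and 33581 at 30 °C, against 62822, 67645, 53810 and 62177 at 22 °C. Within each genotype every warm library was lower than every library at 22 °C, and the spread inside a group was small (coefficients of variation of 5.88 to 15.6%). The fall was 2.30-fold in UCP1Cre+ fat (log2 difference -1.20, SE 0.15, limma adjusted p = 3.45e-05) and 1.94-fold in Cre- fat (-0.96, SE 0.15, limma adjusted p = 0.000124). Gnas is an imprinted locus with several upstream promoters and an antisense transcript. The table gives it 1 value, and no source used here says whether counting used strand, so these transcripts are not separated.

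Adcy3 encodes an adenylyl cyclase of the plasma membrane (chr12:4133116-4213525), and it had the largest temperature difference of the 8 tested genes in both genotypes. It had 946, 1268, 1276 and 1402 normalised counts in UCP1Cre+ fat at 30 °C, against 4585, 5568, 3652 and 7011 in UCP1Cre+ fat at 22 °C. In Cre- fat the values were 1174, 1494, 898 and 1274 at 30 °C, against 3041, 7078, 5250.1 and 4683 at 22 °C. The highest of the 8 warm libraries, at 1494, was less than the lowest of the 8 at 22 °C, at 3041. The fall was 4.18-fold in UCP1Cre+ fat (log2 difference -2.06, SE 0.24, limma adjusted p = 1.77e-05) and 4.03-fold in Cre- fat (-2.01, SE 0.24, limma adjusted p = 8.93e-06). The genotypes did not stand apart at either temperature, with means of 1223 ± 195 and 1210 ± 247 at 30 °C and of 5204 ± 1436 and 5013 ± 1665 at 22 °C (UCP1Cre+ and Cre-, SD, n = 4 each).

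Prkar2b encodes the RIIβ regulatory subunit of PKA, the form that predominates in rodent fat (chr12:31958450-32061648). In UCP1Cre+ fat it had 7647, 10013, 7840.1 and 10301 normalised counts at 30 °C, against 18311, 19976, 15005 and 20086 at 22 °C. In Cre- fat it had 11253, 11513, 9476 and 12250 at 30 °C, against 22920, 21460, 23949 and 20044 at 22 °C. As for Gnas, no warm library reached the lowest 22 °C library of its genotype. The fall was 2.06-fold in UCP1Cre+ fat (log2 difference -1.04, SE 0.14, limma adjusted p = 5.16e-05) and 1.99-fold in Cre- fat (-0.99, SE 0.14, limma adjusted p = 4.06e-05).

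Pde3b encodes phosphodiesterase 3B, through which insulin restrains lipolysis in fat cells (chr7:114415222-114537938). In UCP1Cre+ fat it had 2283, 2531, 2080 and 2211 normalised counts at 30 °C, against 3228, 3808, 2986 and 4398 at 22 °C. The 2 sets of libraries did not overlap, and the fall was 1.57-fold (log2 difference -0.65, SE 0.15, limma adjusted p = 0.00372). In Cre- fat it had 2848, 3522, 2524 and 3569.8 at 30 °C, against 3357, 3239.9, 4388 and 4657 at 22 °C. The Cre- groups overlapped, and the difference of -0.32 was not called (SE 0.15, limma adjusted p = 0.0913). It came to -0.41 with an adjusted p of 0.0497 without Cre- 22 °C replicate 2.

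Pde4b encodes a cAMP-specific phosphodiesterase of the PDE4 family, whose transcription is raised by cAMP in several cell types (chr4:102087332-102607275). In UCP1Cre+ fat it had 481, 325, 605 and 596 normalised counts at 30 °C, against 292, 211, 427 and 341 at 22 °C. The groups overlapped, 3 of the 4 warm libraries lying above all at 22 °C. The rise was 1.58-fold and just past the threshold (log2 difference 0.66, SE 0.24, limma adjusted p = 0.0399; exact permutation p = 0.0857). The call was lost without any 1 of UCP1Cre+ 22 °C replicates 1, 2 and 4 or 30 °C replicates 1, 3 and 4, with adjusted p between 0.0523 (22 °C replicate 4) and 0.143 (22 °C replicate 2). In Cre- fat it had 323, 315, 462 and 444 at 30 °C, against 228, 311, 317 and 193 at 22 °C. That difference was of like size and was not called (log2 difference 0.56, SE 0.24, limma adjusted p = 0.0609). It passed without Cre- 22 °C replicate 2 or 3 (0.65 and 0.66, adjusted p = 0.0488 and 0.0485) and without UCP1Cre+ 22 °C replicate 2 or 30 °C replicate 2 (adjusted p = 0.0392 and 0.0419).

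**Figure D2:**
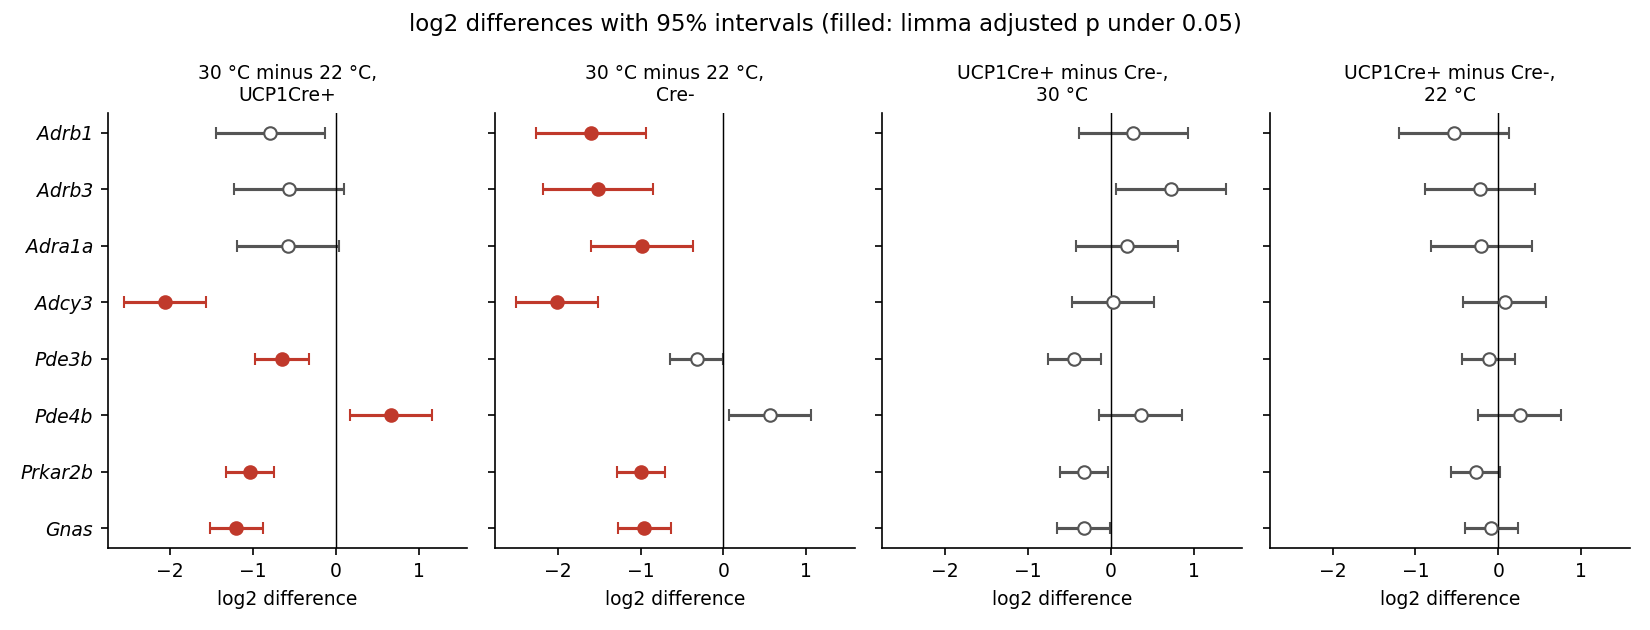
Log2 difference (horizontal axes) of the 8 tested genes for temperature within each genotype and for genotype at each temperature, with 95% intervals from limma. Filled points passed an adjusted p of 0.05. Adcy3 lies near -2 in both temperature panels, and no point is filled in the genotype panels.

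Totals were lower at 30 °C, and some of these calls depended on how the libraries were scaled. Libraries were also rescaled to equal totals, a setting chosen after seeing the data. The median log2 difference of all tested genes, 0.02 in UCP1Cre+ and 0.04 in Cre- fat as deposited, was then 0.31 and 0.43. Relative to that median the difference of Gnas was -1.22 in UCP1Cre+ and -0.99 in Cre- fat, and that of Adcy3 -2.08 and -2.04. The calls of Pde3b in UCP1Cre+ fat (log2 difference -0.36, limma adjusted p = 0.0578) and of Adra1a in Cre- fat (-0.59, adjusted p = 0.0786) were lost, and Pde4b was called higher in Cre- fat (0.96, adjusted p = 0.00691). In that scaling only 20.4% of all called genes were lower in UCP1Cre+ fat and 15% in Cre- fat, against 54.1% and 49.8% in the deposited scaling. Quantile normalisation, which forces 1 distribution on all libraries, ended the calls of Gnas. It then differed by -0.34 in UCP1Cre+ fat (limma adjusted p = 0.12) and by -0.19 in Cre- fat (adjusted p = 0.385). Pde3b in Cre- fat changed sign under both (0.07 each), while the calls of Adrb1 and Adrb3 in Cre- fat and of Adcy3 and Prkar2b in both genotypes held in all 4 scalings. The higher call of Pde4b in UCP1Cre+ fat held in all 4 as well (limma adjusted p between 0.0108 and 0.0399), though it was lost when some single libraries were left out. The size of the Prkar2b fall did depend on scaling. In UCP1Cre+ fat it was -1.04 as deposited, -0.75 with equal totals and -0.60 with quantile normalisation (limma adjusted p = 0.00125 for the last). In Cre- fat it was -0.99, -0.60 and -0.44 (limma adjusted p = 0.00821 for the last).

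**Figure D3:**
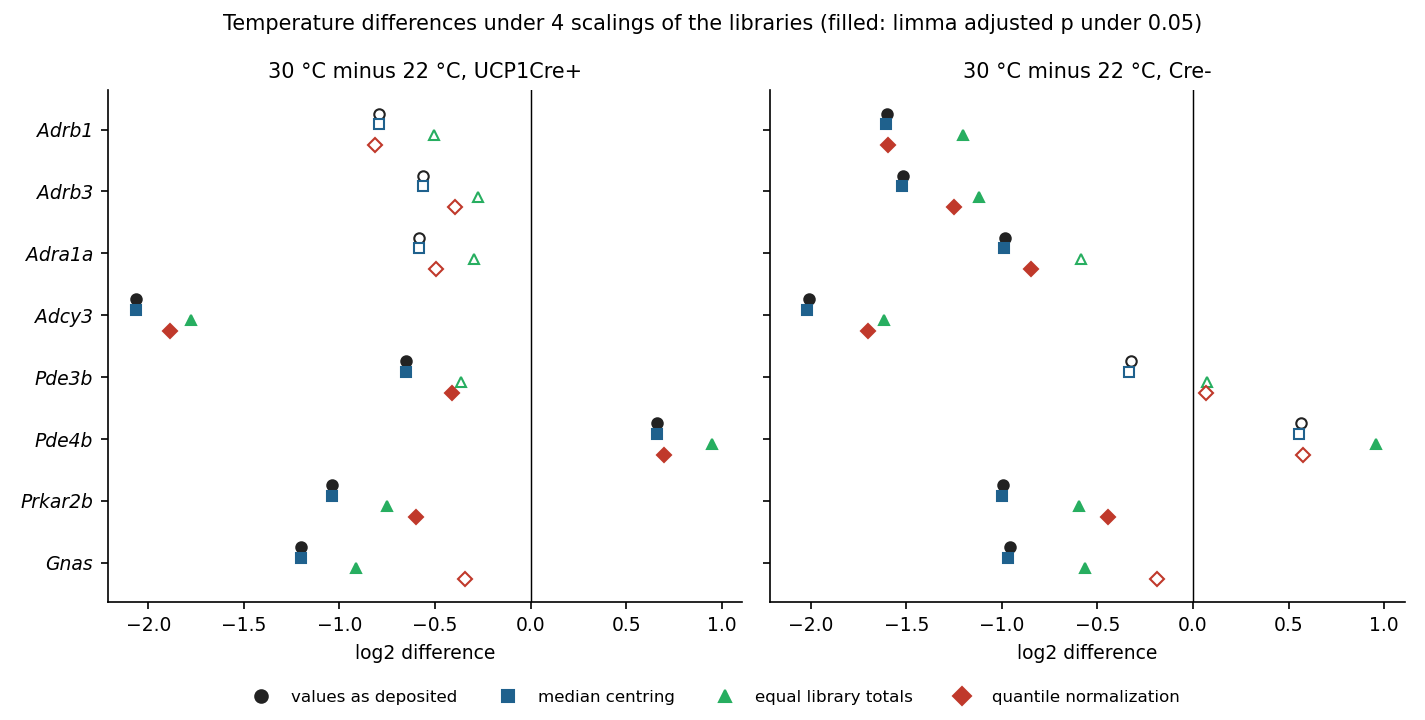
Log2 difference between 30 °C and 22 °C (horizontal axes) of the 8 tested genes in UCP1Cre+ and Cre- fat under 4 ways of scaling the libraries. Filled symbols passed an adjusted p of 0.05. Adcy3 and Prkar2b stay filled on the negative side throughout, and the Gnas diamond, for quantile normalisation, is open at -0.34 and -0.19.

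The second comparison asks whether Cre in a floxed Bcl6 background altered these genes. At 30 °C limma called 0 of the 8 genes between UCP1Cre+ and Cre- fat, beside 12.5% of all tested genes, and 4 had an unadjusted p under 0.05, beside 25.8% of all tested genes. At 22 °C it called 0 of 8 beside 10.2%, with 0 at an unadjusted p under 0.05 (25.5% of all tested genes) and none without overlap (6.38% of all tested genes were higher and 6.06% lower without overlap, 12.4% in all). At 30 °C the means of Adrb3 were 1741 ± 641 in UCP1Cre+ and 1013 ± 194 in Cre- fat (SD, n = 4 each). The difference of 0.73 had an interval of 0.06 to 1.39 and a limma adjusted p of 0.153. Gnas was the 1 gene of the 9 whose genotype groups did not overlap, with 25400 ± 3961 in UCP1Cre+ and 31650 ± 1862 in Cre- fat at 30 °C. It was not called (log2 difference -0.33, limma adjusted p = 0.181; exact permutation p = 0.0286), and 12.4% of all tested genes were lower and 10.5% higher without overlap in the same comparison (22.9% in all). Pde3b averaged 2276 ± 189 in UCP1Cre+ and 3116 ± 514 in Cre- fat at 30 °C (log2 difference -0.44, limma adjusted p = 0.068), and it passed without Cre- 30 °C replicate 3 (-0.54, adjusted p = 0.0408). Prkar2b averaged 8950 ± 1401 in UCP1Cre+ and 11120 ± 1176 in Cre- fat (-0.32, limma adjusted p = 0.149).

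At 22 °C the genotype differences ran from -0.53 (Adrb1) to 0.26 (Pde4b). Adrb1 averaged 364 ± 94.3 in UCP1Cre+ and 548 ± 194 in Cre- fat, with an interval of -1.19 to 0.13 (limma adjusted p = 0.304). For Adcy3 the intervals were -0.47 to 0.52 at 30 °C and -0.42 to 0.57 at 22 °C, so that differences beyond about 1.5-fold lie outside both. Intervals for the 3 receptors were wider and leave room for differences of 1.5-fold or more.

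The temperature falls of Adrb1 and Adrb3 were called in Cre- fat and not in UCP1Cre+ fat, and the difference between the 2 falls was tested as an interaction. It was 0.95 for Adrb3 (SE 0.44, limma adjusted p = 0.474) and 0.81 for Adrb1 (SE 0.44, limma adjusted p = 0.568), so neither was shown to differ by genotype. Limma called 0 of the 8 interactions, beside 0.44% of all tested genes (0.175% higher and 0.266% lower), and Adrb3 was the 1 gene with an unadjusted p under 0.05, beside 10.5% of all tested genes. The other 6 ran from -0.33 (Pde3b) to 0.40 (Adra1a).

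Markers of other cell types moved with temperature and genotype too. Of 12 macrophage markers, 11 rose at 30 °C in UCP1Cre+ fat and 10 in Cre- fat, and their summed level ran from 5794 to 13700 in UCP1Cre+ and from 3286 to 4099 in Cre- fat at 30 °C. At 22 °C it ran from 2079 to 2948 in UCP1Cre+ and from 1250 to 2058 in Cre- fat, and none of the markers was at 0 in all libraries of a group. With the macrophage score of each library as a covariate, 9 of the 11 called temperature differences of the 8 genes lost the call. How many of all tested genes lost theirs with it is not given, so nothing is read from that count. Since 94.1% of that score's variance lies between the groups, its part in the result cannot be told apart from temperature and genotype. Of 8 brown adipocyte markers 7 fell at 30 °C in each genotype (medians -1.27 in UCP1Cre+ and -1.21 in Cre- fat). Ucp1, Dio2, Elovl3 and Ppargc1a among them are also on the list of cAMP responsive genes below, so the lists are not independent. Of 6 general adipocyte markers 1 fell in UCP1Cre+ and 3 in Cre- fat, with medians of -0.32 and -0.25. Of 16 skeletal muscle markers 0 rose in UCP1Cre+ and 7 in Cre- fat, with medians of 0.18 and 3.92. With the muscle score as a covariate 1 called temperature difference of the 8 genes, that of Adra1a in Cre- fat, lost the call. Of 6 tested white fat enriched markers 3 rose and 1 fell in UCP1Cre+ fat and 3 rose and 2 fell in Cre- fat, with medians of 1.77 and 1.85. Of 7 progenitor markers 4 rose in each genotype, of 5 lymphocyte markers 1 rose in UCP1Cre+ and 3 in Cre- fat, and of 8 endothelial markers 3 rose in each. Of 8 mural and smooth muscle markers 3 rose and 1 fell in UCP1Cre+ and 3 rose in Cre- fat, and of 6 Schwann and nerve markers 0 changed in UCP1Cre+ and 1 fell in Cre- fat. Scores other than those of macrophages and skeletal muscle were not used as covariates, and their part in the differences of the 8 genes was not tested.

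The other genes of the pathway were taken from 11 lists, which were drawn up with earlier results of these data known. Of 176 genes listed 141 were tested. At 30 °C 22 were higher and 33 lower in UCP1Cre+ fat, which is 15.6% and 23.4%, beside 15% and 17.7% of all tested genes. In Cre- fat 29 were higher and 37 lower, which is 20.6% and 26.2%, beside 22.9% and 22.7%. With equal library totals these became 48 and 22 in UCP1Cre+ fat and 71 and 17 in Cre- fat. In that scaling 4397 of all 13176 tested genes were higher and 1127 lower in UCP1Cre+ fat, and 6569 and 1161 in Cre- fat. With the macrophage score as a covariate the pathway counts were 1 and 1 in UCP1Cre+ fat and 13 and 9 in Cre- fat. That score lies mostly between groups, and the share of all tested genes called with it is not given. Nothing is read from the drop. Adra1d, an α1 receptor of smooth muscle, rose at 30 °C (log2 difference 0.47 in UCP1Cre+ and 1.06 in Cre- fat, limma adjusted p = 0.00681 and 7.64e-06), though the first call was lost under quantile normalisation (0.32, adjusted p = 0.0643).

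Of 19 tested genes known to respond to cAMP in brown fat, 12 fell and 1 rose at 30 °C in each genotype. Their medians were -0.93 in UCP1Cre+ and -1.36 in Cre- fat. Of all tested genes 17.7% were lower and 15% higher in UCP1Cre+ fat, and 22.7% and 22.9% in Cre- fat. Temperature counts of the lists below stand beside the same shares. Ucp1, Dio2, Elovl3 and Ppargc1a are also among the brown adipocyte markers above, so these genes enter both counts. Ucp1 averaged 5329 ± 1554 at 30 °C, against 45890 ± 11770 at 22 °C in UCP1Cre+ fat (log2 difference -3.12, limma adjusted p = 5.45e-07), and 16600 ± 2078 against 88820 ± 26460 in Cre- fat (-2.38, limma adjusted p = 2.77e-06). Gk, glycerol kinase, fell by 2.42 in UCP1Cre+ and by 3.20 in Cre- fat on the log2 scale (limma adjusted p = 5.74e-05 and 2.29e-06). Elovl3, a fatty acid elongase, had 0.678, 2.19, 1.91 and 4.85 normalised counts at 30 °C, against 62.2, 28.4, 54.1 and 71.0 at 22 °C in UCP1Cre+ fat, and fell by 6.73 in Cre- fat (limma adjusted p = 3.14e-07). Gadd45a, a stress-response gene, was the 1 that rose (1.24 and 2.16 in UCP1Cre+ and Cre- fat, limma adjusted p = 0.00787 and 8.43e-05).

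Upstream of cAMP the lists were mixed. Of 6 other adenylyl cyclases, Adcy10, the soluble form, fell in both genotypes (-2.88 in UCP1Cre+ and -3.77 in Cre- fat, limma adjusted p = 0.000537 and 3.62e-05), while Adcy7, known from blood cells, rose (1.45 and 0.97, limma adjusted p = 6.32e-05 and 0.000947). Of 22 other G protein subunits 4 rose and 5 fell in UCP1Cre+ fat and 3 rose and 6 fell in Cre- fat. Gng2, a γ subunit, rose by 1.48 in each (limma adjusted p = 3.23e-05 and 1.71e-05). Of 16 other receptors acting through Gs or Gi, Ptger3, a Gi-coupled prostaglandin receptor of adipocytes, fell by 1.13 in UCP1Cre+ and by 1.01 in Cre- fat (limma adjusted p = 0.00057 and 0.000909). Adcy7 and Gng2 moved in the direction of the macrophage markers. With the macrophage score as a covariate Adcy7 lost both calls (0.84 and 0.46 in UCP1Cre+ and Cre- fat, limma adjusted p = 0.313 and 0.484). Gng2 lost the call in UCP1Cre+ fat (1.90, limma adjusted p = 0.052) and not in Cre- fat (1.82, limma adjusted p = 0.0155). The Gng2 differences were larger with the score than without it. With 94.1% of its variance between groups, the score's part in these differences cannot be told apart from temperature and genotype. Of 21 receptor kinases, arrestins and RGS proteins, which end receptor and G protein signals, 5 rose and 2 fell in UCP1Cre+ fat and 8 rose and 4 fell in Cre- fat. Rgs7 averaged 352 ± 15.4 at 30 °C, against 595 ± 87.1 at 22 °C in UCP1Cre+ fat, and 308 ± 52.4 against 846.5 ± 133.9 in Cre- fat (log2 differences -0.74 and -1.46, limma adjusted p = 0.000609 and 1.03e-06). Of 4 tested genes of catecholamine handling 2 fell in UCP1Cre+ and 1 in Cre- fat.

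Downstream, of 8 other PKA subunits and inhibitors, the catalytic subunit Prkaca fell in UCP1Cre+ fat (2518 ± 260 at 30 °C, against 3738 ± 588 at 22 °C, log2 difference -0.56, limma adjusted p = 0.00117). In Cre- fat its difference of -0.31 (limma adjusted p = 0.0306) changed sign with equal totals (0.08) and with quantile normalisation (0.07), and lost the call without Cre- 22 °C replicate 3 or 4 or 30 °C replicate 2 or 3 (adjusted p = 0.0631, 0.0516, 0.0665 and 0.0764). Pkia, a PKA inhibitor, rose in Cre- fat (278 ± 46.1 at 30 °C, against 30.0 ± 18.1 at 22 °C, log2 difference 3.35, limma adjusted p = 7.69e-05). The skeletal muscle score was also higher in Cre- fat at 30 °C (1.44 to 2.23) than at 22 °C (-3.39 to 0.185). Over 29 alternatives, the muscle score as a covariate included and the macrophage score left out, the Pkia call held (2.355 to 3.729). Of 14 other phosphodiesterases, 1 rose and 6 fell in UCP1Cre+ fat, and 1 rose and 5 fell in Cre- fat. Pde7b fell by 1.09 in UCP1Cre+ and by 2.41 in Cre- fat (limma adjusted p = 0.00844 and 1.19e-05), and Pde9a, which acts on cGMP, rose by 1.18 and 1.24 (limma adjusted p = 0.00631 and 0.00344). Of 12 A-kinase anchoring proteins, which tether PKA, 1 changed in UCP1Cre+ and 3 in Cre- fat. Of 17 CREB family genes, coactivators and cAMP-activated exchange factors, 4 rose and 1 fell in UCP1Cre+ fat and 6 rose and 2 fell in Cre- fat. Creb5 was among those that rose in UCP1Cre+ fat (1.44, limma adjusted p = 0.00432).

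**Figure D4:**
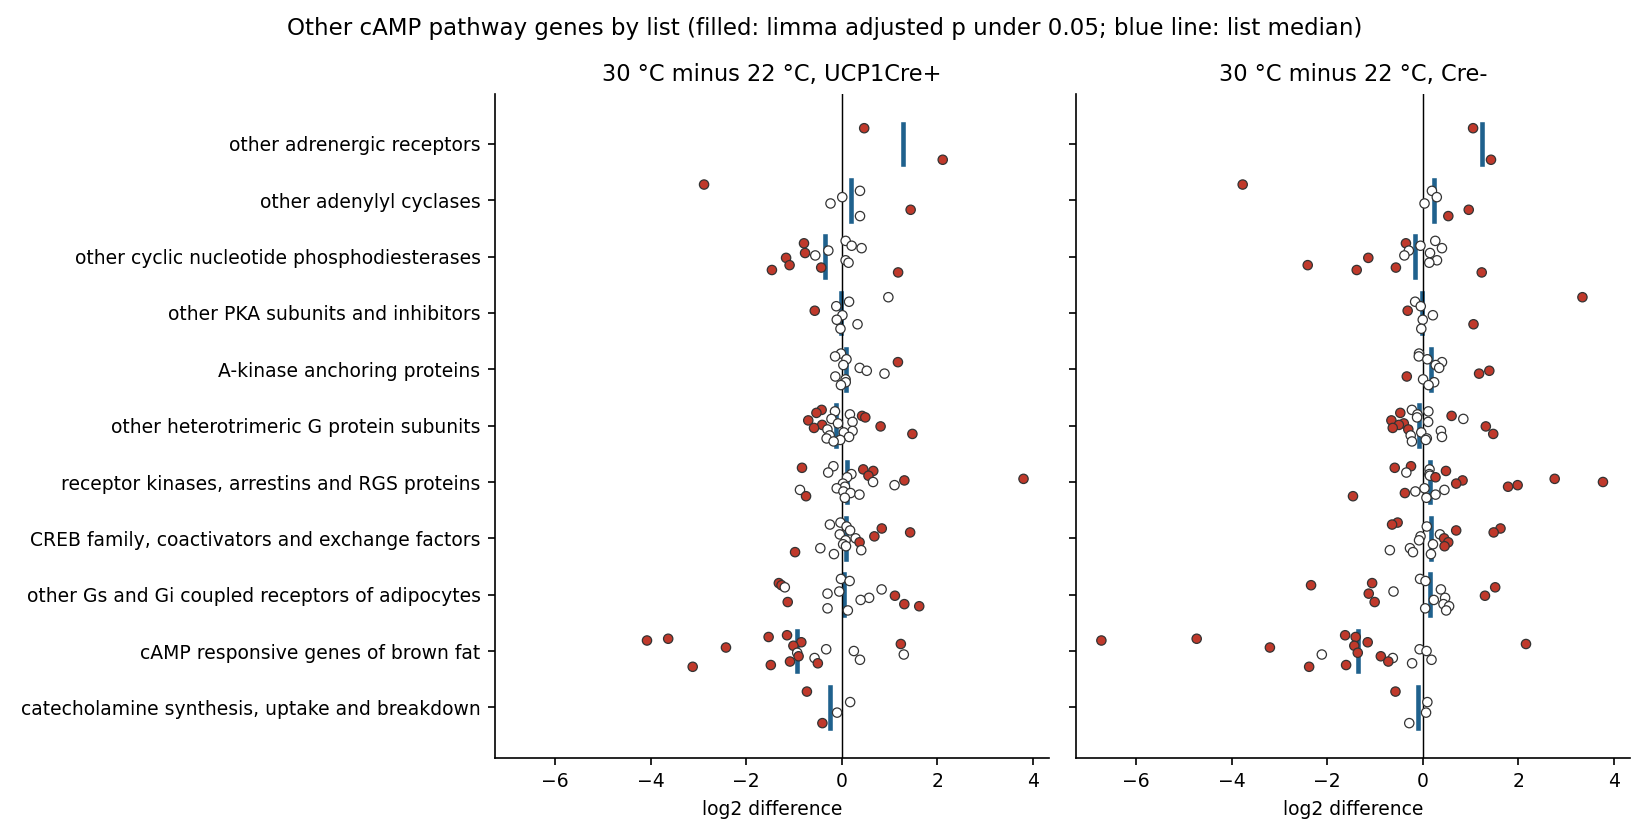
Log2 difference between 30 °C and 22 °C (horizontal axes) of 141 other genes of the pathway in 11 lists, in UCP1Cre+ and Cre- fat. Each point is a gene, filled where the adjusted p was under 0.05, and blue lines are list medians. The cAMP responsive genes have medians of -0.93 and -1.36 in UCP1Cre+ and Cre- fat.

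Some of the other pathway genes changed with genotype. At 30 °C 16 of the 141 were higher and 14 lower in UCP1Cre+ fat, beside 5.65% and 6.85% of all tested genes. The higher count was 10 without Cre- replicate 4 or UCP1Cre+ replicate 4. At 22 °C 10 were higher and 11 lower, beside 5.51% and 4.69%. The higher count was 22 without UCP1Cre+ replicate 2. The lower count was 7 without Cre- replicate 2 or 3 and 6 without UCP1Cre+ replicate 1 or 3. At 22 °C 17 were higher and 6 lower with equal totals, and 8 and 6 with quantile normalisation. Of all 13176 tested genes 1306 were higher and 303 lower there with equal totals, and 453 and 444 with quantile normalisation. The pathway counts at 22 °C were 5 and 3 with only the groups compared in the fit, and 16 and 17 without the 2 sparsest libraries. Gnai1, an inhibitory α subunit, was higher in both (763 ± 122 in UCP1Cre+ and 416.5 ± 76.4 in Cre- fat at 30 °C, 672 ± 69.6 and 445 ± 42.0 at 22 °C, limma adjusted p = 0.000584 and 0.0127). The adenosine receptors went apart. The Gs-coupled Adora2a was higher (log2 difference 0.86 at 30 °C and 0.75 at 22 °C, limma adjusted p = 0.00108 and 0.00384) and the Gi-coupled Adora1 lower (-0.49 and -0.53, limma adjusted p = 0.00781 and 0.00559). Adra1d was lower at 30 °C (127 ± 15.0 in UCP1Cre+ and 279 ± 34.7 in Cre- fat, log2 difference -1.13, limma adjusted p = 1.54e-05). Pde4a, a relative of Pde4b, averaged 522 ± 93.8 in UCP1Cre+ and 1235 ± 194 in Cre- fat at 30 °C (-1.25, limma adjusted p = 2.03e-05). Prkaca was lower at 30 °C as well (-0.51, limma adjusted p = 0.00607). At 30 °C 9 of 12 macrophage markers were higher in UCP1Cre+ fat (median 0.95). With the macrophage score as a covariate the counts of higher and lower pathway genes were 3 and 4 at 30 °C and 5 and 2 at 22 °C. The share of all tested genes called with that score is not given, so nothing is read from the lower counts. The calls of Gnai1 at both temperatures (1.31 and 0.91, limma adjusted p = 0.0136 and 0.0219) and of Pde4a (-1.45, adjusted p = 0.0118) and Adra1d (-1.05, adjusted p = 0.0402) at 30 °C then held. Those of Adora2a at both temperatures (0.68 and 0.62, adjusted p = 0.195 and 0.111), Adora1 at 30 °C (-0.51, adjusted p = 0.196) and Prkaca (-0.65, adjusted p = 0.122) were lost, and so was that of Adra1d at 22 °C (-0.49, adjusted p = 0.124, against -0.55 and 0.00886 without the score). The score lies mostly between groups, so its part cannot be told apart from genotype.

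BCL6 binding was described from the authors' peak list, made from Cre- brown fat at 30 °C. It holds 3022 peaks of 180 bp, each with the authors' score (4.11 to 170, median 5.18), which was used only to rank peaks. In all 2 peaks were assigned to these genes as the nearest start, 1 each for Adrb1 and Adcy3. That is 2 of the 8 tested genes, beside 14.2% of all tested genes with an assigned peak. The Adcy3 peak (chr12:4159279-4159459) lies in intron 2 of 21 of transcript NM_001159537, 25216 bp after its start, and ranked 402 with a score of 9.47. The Adrb1 peak (chr19:56758020-56758200) is intergenic, 35738 bp past the start and inside a B4A SINE repeat, and ranked 1664 with a score of 4.83. A further peak (chr7:114525012-114525192, score 4.65) lies inside Pde3b but was assigned to Cyp2r1. None of these lay within 10000 bp of the start of one of the 9 genes, and the TTCAGGGAA of the Adcy3 promoter shown above lies outside any listed peak. From Adrb3 the closest peak was 30.6 kb away and from Prkar2b 40.9 kb, while Adra2a, Pde4b, Gnas and Adra1a had none nearer than 150.2, 179.3, 202.4 and 487.6 kb. Of the 141 other pathway genes 33 (23.4%) had an assigned peak, led by Pde8a with a score of 56.3. This is 1 peak list without replicates, and its peaks were not compared with a library of UCP1Cre+ fat here.

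Genes whose log2 levels ran most like those of each called gene over the 16 libraries were picked by Pearson's r among 9295 genes with a mean of at least 100. The r values describe likeness over 4 groups and carry no test. For Gnas the most alike gene of all was Prkar2b (r = 0.97), followed by Otop1 (0.97) and Prelid3b (0.96), and for Prkar2b they were Pdhx, Supv3l1 and Otop1 (0.98 each). Adcy3 ran with Acad11, Tbrg4 and D17Wsu92e (0.98 each). The receptors had looser partners, Stk11 and Rxra among others for Adrb1 (0.91 each), Dcun1d3, Med20 and Slc25a3 for Adrb3 (0.88, 0.86 and 0.86) and Cebpz, Wdr46 and Tmed9 for Adra1a (0.91, 0.91 and 0.90). Pde3b ran with Ubr3, Fnip1 and Ptp4a1 (0.92 each) and Pde4b with Nrarp, Il4ra and Nxpe4 (0.92, 0.91 and 0.89). With the group means removed, r between Gnas and Prkar2b was 0.75 and that between Gnas and Otop1 0.46.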

How the data were processed

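RNA was measured by RNA-seq in 16 libraries (4 groups of 4), and BCL6 binding by ChIP-seq. The deposited RNA values are normalised counts, a signal per gene made by the authors with kallisto and DESeq2 on mm10, per the submitters' processing notes. They are not whole numbers, so raw depth is unknown and a count model was not used. The deposited peak score was written by the authors' HOMER run, per the file headers, and no source used here states its scale.

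Values were tested as log2(value + 1) in limma 3.58.1 (R 4.3.3) with a trend, over all 16 libraries and all 13176 genes with a mean of at least 10, with Benjamini-Hochberg adjustment and a threshold of 0.05. The limma step was tested on simulated data. Exact two-sided permutation tests compared 4 with 4 libraries. Promoter windows came from RefSeq (GRCm38.p6) and were searched on both strands. Genotype was compared at each temperature, temperature within each genotype, and the 2 together as an interaction. The genes and lists were chosen with earlier results of these data known. Named pathway genes were among the 3 with the smallest adjusted p in a list and comparison. Marker scores are means of centred log2 values over a list.

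Alternatives were other pseudocounts (0.5 and 5), no filter or a minimum of 50, median centring, quantile normalisation, no trend, only the groups compared, a replicate block, marker scores as covariates, leaving out each library and leaving out the 2 sparsest. Equal library totals were added after seeing the data. No genome sequence was used here, so peak sequences are not shown. Some items are not reported here.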

Additional observations from a re-analysis of the deposited data

Results flagged for a closer look

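Adra2a in Cre- fat at 22 °C had 1 library apart from the others: replicate 1 held 3.77 normalised counts, against 0.788 to 1.29 in the other 3. Its gap was 0.833 of the group's range, just over the critical value of 0.829. Of 36 groups of libraries checked 1 passed, where chance gives about 5%.

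For 2 of the 141 other pathway genes (1.42%) limma called an interaction of temperature and genotype, beside 0.44% of all tested genes. Rgs11, a regulator of G protein signalling, had 17.7, 21.8, 15.1 and 13.0 normalised counts in UCP1Cre+ fat and 263.6, 193.7, 311 and 220.4 in Cre- fat at 30 °C. At 22 °C it had 10.3, 5.27, 10.8 and 17.5 in UCP1Cre+ fat and 15.1, 17.7, 17.9 and 16.8 in Cre- fat. The 4 Cre- libraries at 30 °C stood far above the other 12, with an interaction of -3.12 (limma adjusted p = 0.0009).

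Pde4a had 542.8, 436.8, 464.1 and 646 normalised counts in UCP1Cre+ fat and 1525, 1135, 1120 and 1162 in Cre- fat at 30 °C. At 22 °C it had 884.7, 832.3, 942 and 855.8 in UCP1Cre+ fat and 928, 1262, 1006 and 1247 in Cre- fat. Its interaction was -0.92 (limma adjusted p = 0.0493). The call was lost without any 1 of 15 of the 16 libraries, UCP1Cre+ 30 °C replicate 4 being the exception, with adjusted p up to 0.122. Over 28 alternatives, those included and the macrophage score left out, it was lost in 22.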

How the results depend on the processing

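Of 1192 pairs of a value of the 8 genes and an alternative setting, 1116 kept direction and call, 24 lost the call, 13 gained one and 39 changed sign, none of them from a called value. The number of members called lower at 30 °C with the macrophage score as covariate was 0 in UCP1Cre+ fat and 2 in Cre- fat. No share of all tested genes called with that score is given, so nothing is read from these numbers. The 1 higher call in UCP1Cre+ fat, of Pde4b, became 0 with no filter, no trend, the groups compared only, the macrophage score or without the 2 sparsest libraries, and 0 to 1 over left-out libraries. In Cre- fat the members called higher were 1 with equal totals, with the groups compared only and with the replicate block, and 0 to 1 over left-out libraries. Between genotypes at 30 °C the members called lower were 1 with the groups compared only and without the 2 sparsest libraries, and 0 to 1 over left-out libraries. Of 24 same-numbered pairs of libraries 6 correlated above 0.1 (r -0.48 to 0.238). Pairing by number was thus not seen, though so few libraries a group cannot exclude it. The replicate block added 1 call among members, Pde4b in Cre- fat (limma adjusted p = 0.03). The peaks nearest the members were 0 within 10000 bp and 1 at or above the median score.

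Signs changed as follows, and the cause was not tested. With quantile normalisation Pde3b was 0.0445 by genotype at 22 °C and 0.0665 by temperature in Cre- fat, Prkar2b 0.06 and Gnas 0.21 by genotype at 22 °C, Gnas 0.0475 at 30 °C and Prkaca 0.0743 by temperature in Cre- fat. With equal totals Pde3b was 0.0599 and 0.071 in the same comparisons, Gnas 0.0908 at 22 °C, the Pde4b interaction -0.0068, and Prkaca 0.0814 and Akap7 0.0628 by temperature in Cre- fat. With the muscle score Adcy3 was -0.0044 at 22 °C, and the interactions of Adcy3 and Prkar2b were 0.0914 and 0.024. Without the 2 sparsest libraries Adcy3 was -0.19 at 22 °C and the interactions of Adcy3 and Pde4b were 0.21 and -0.0251. With the macrophage score Adrb1 was 0.10 by genotype at 22 °C and 0.59 by temperature in UCP1Cre+ fat, Pde3b 0.0288 at 22 °C, the Adcy3 interaction 0.11, Gnao1 0.0449 by genotype at 30 °C and 0.27 by temperature in UCP1Cre+ fat. Rgs1 was then -0.18 by genotype at 30 °C, and by temperature -0.25 in UCP1Cre+ and -0.58 in Cre- fat. Over left-out libraries the genotype difference at 30 °C ran from -0.11 to 0.14 for Adcy3, -0.0897 to 0.44 for Adra1a and -0.0301 to 0.47 for Adrb1. At 22 °C it ran from -0.14 to 0.26 for Adcy3, -0.49 to 0.0824 for Adrb3 and -0.15 to 0.0102 for Gnas. Interactions ran from -0.24 to 0.17 for Adcy3, -0.0816 to 0.29 for Pde4b and -0.14 to 0.0255 for Prkar2b. Of 3072 such pairs for other genes 2853 were unchanged, 211 lost the call and 8 changed sign. Counts over the pathway lists fell to 1 higher and 1 lower in UCP1Cre+ fat and 13 and 9 in Cre- fat with the macrophage score. Genotype counts fell to 3 and 4 at 30 °C and 5 and 2 at 22 °C with it. The share of all tested genes called with that score is not given, so nothing is read from these falls. At 30 °C 22 were lower without the 2 sparsest libraries.

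Raw depth is unknown, which limits what can be said of Adra2a, near 0 in all libraries. The normalisation made before deposit cannot be undone, and 4 libraries a group leave wide intervals for the receptors.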
